A study of Mus musculus with 6 samples.

Results

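Slc5a3, the gene of a sodium-coupled myo-inositol transporter, was examined in mouse embryonic stem cells (mESCs) together with 4 further genes of osmolyte handling: Slc6a6, Slc38a2, Akr1b3 and Nfat5. The 5 genes were found by their symbols among the 39017 genes counted by poly(A) RNA-Seq. Slc5a3 was selected on its counts, known to be higher in auxin-treated than in untreated cells, and the other 4 are known to serve the same osmotic response. The values of the 5 genes in that comparison are therefore given as a description, with no p-value, and nothing is read from how many of them were called.

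Cells that meet a hypertonic medium first take up ions and then replace them with small uncharged molecules, the compatible osmolytes, which include myo-inositol, taurine, sorbitol, betaine and neutral amino acids. Slc5a3 imports myo-inositol with sodium, Slc6a6 imports taurine with sodium and chloride, and Slc38a2 (also known as SNAT2) imports small neutral amino acids such as alanine and glutamine. Akr1b3 is mouse aldose reductase, which makes sorbitol from glucose. Nfat5, also called TonEBP, is the transcription factor that drives many of these genes under hypertonic conditions. Myo-inositol is also the headgroup of the phosphoinositide lipids, and Slc38a2 responds to amino acid starvation as well as to osmotic stress.

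The 6 libraries fell into 3 groups of 2, and the total counts ranged from 14094022 to 15358714 per library. All 6 came from the V6.5 mESC line, grown on irradiated mouse embryonic fibroblasts as feeders. The paper states that the cells were taken for experiments after 2 passages of these feeders. In the Pol II degron mESCs, both alleles of Rpb1, the largest subunit of RNA polymerase II encoded by Polr2a, carried an mAID-GFP tag at the C terminus. These cells also carried OsTIR1, the plant protein that marks the tag for degradation, as a doxycycline-inducible cassette at Rosa26. The untreated group received doxycycline at 1 μg/ml for 12 h and no auxin, and the auxin-treated group received the same doxycycline and then auxin (indole-3-acetic acid) at 500 μM for 6 h. The wild-type group had untagged Pol II, and its labels state no treatment of its own. The degron cells descend from single clones, and nothing in the labels says whether the replicates were separate cultures, so the p-values measure the spread between these libraries only. The comparison with auxin addresses how transcript levels stood after 6 h of auxin, which depletes the tagged Pol II. No untagged library is labelled as given auxin, so auxin itself and the loss of Pol II cannot be told apart. The other comparison addresses how wild-type cells differed from the untreated degron cells. Those groups differ in the tag, OsTIR1, clonal origin and the doxycycline stated, and their counts were deposited separately. The parts of these differences cannot be told apart. Both comparisons use the same 2 untreated libraries.

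Levels are given as CPM, the counts of a gene relative to the counts of its library, scaled over the 6 libraries by the trimmed mean of M-values (TMM) method, and are shares of each library rather than amounts per cell. Fewer cells of a type and less RNA per cell cannot be told apart in such values. The summed level of 10 pluripotency markers was 4437 and 5069 CPM in untreated, 3615 and 3886 CPM in auxin-treated and 7511 and 7427 CPM in wild-type libraries. The summed level of 12 fibroblast markers, chosen for the feeders, was 250.7 and 243.1 CPM, 275.7 and 317.5 CPM, and 189.9 and 192.1 CPM in the same order. Only Lum was at 3 counts or fewer in every library. Of the 10 pluripotency markers, 5 were called lower and 0 higher with auxin, where 264 of all 16128 genes tested were called lower. In wild-type cells 6 of them were called higher and 1 lower, against 29.9% and 30.7% of all genes. Of the 10 fibroblast markers tested in wild-type cells, 3 were called higher and 5 lower, against 29.9% and 30.7% of all genes. The sum therefore hides markers that went opposite ways, and it is not a direct measure of the feeders. The mRNAs of the mitochondrial genome took 0.342% to 0.441% of the counts in the 4 degron libraries and 1.5% to 1.53% in the wild-type libraries. These mRNAs alone are the mitochondrial transcripts used for scaling below. The part that any shift in these marker sums or in the mitochondrial share had in the results was not tested. The records of the wild-type libraries mention retinas in the RNA extraction. There, 10 retina markers summed to 8.95 and 8.59 CPM, against 6.14 and 5.91 CPM in untreated and 6.27 and 7.42 CPM in auxin-treated libraries. Crx and Rcvrn were at 0 in all 6 libraries. Only 2 of the retina markers had enough counts for the test in wild-type cells, and 2 were called higher, against 29.9% of all genes. The Polr2a transcript was counted 6623 and 6568 times in untreated, 10396 and 10663 times in auxin-treated and 6866 and 7129 times in wild-type libraries. The degron acts on the protein, so these counts do not check the depletion.

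Slc5a3 (ENSMUSG00000089774) lies on chromosome 16 of mm10, from 92058322 to 92087473 on the plus strand, and shares its start with another gene. Its coding transcript has 2 exons and 10913 bases, of which 2154 code for the transporter and 8263 form a 3′ UTR longer than that of 99.5% of 21298 protein-coding genes in GENCODE vM21. The first exon, 159 bases from 92058322 to 92058480, lies within the first exons of Mrps6 and of Gm49711. Mrps6 encodes a protein of the mitochondrial ribosome, and Gm49711 is annotated as a readthrough transcript. The second exon, 10754 bases from 92076720 to 92087473, holds nearly all of the Slc5a3 exon sequence and lies inside the first intron of Mrps6. Reads of unspliced Mrps6 RNA over that exon cannot be told apart from Slc5a3 reads, and 1.46% of the Slc5a3 exon bases are shared with spliced transcripts of other genes.

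**Figure D1:**
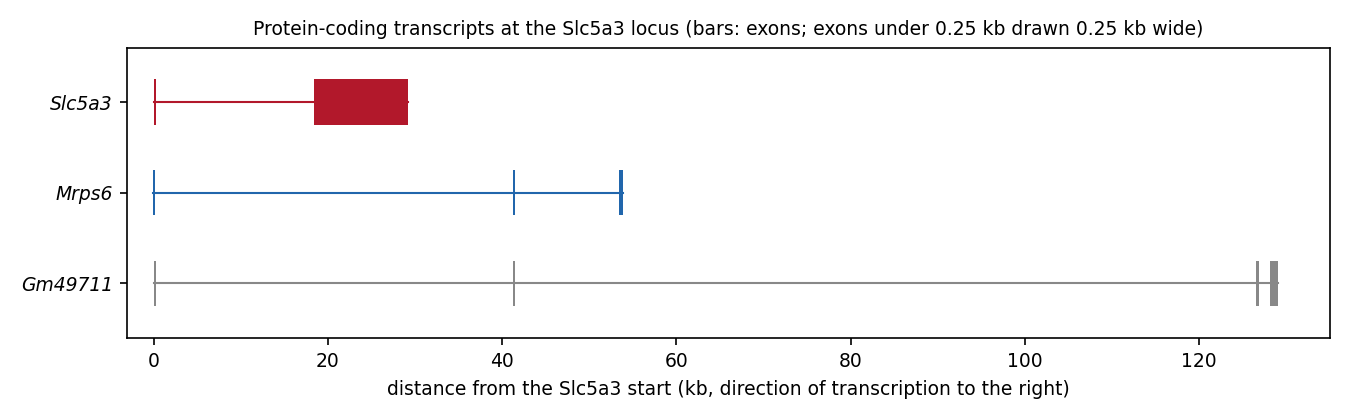
Exons (bars) and introns (lines) of the protein-coding transcripts of Slc5a3, Mrps6 and Gm49711, against the distance from the Slc5a3 start in kb, with exons under 0.25 kb drawn 0.25 kb wide. All 3 begin in the same place, and the large second exon of Slc5a3, 10754 bases long, falls between the first and the second exon of Mrps6.

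The shared start region is shown because both genes read from it while their counts in these libraries did not move together. RefSeq (GRCm38.p6) gives a window of 300 bases around the start of each gene, 250 before it and 50 after, and the windows of Slc5a3 and Mrps6 are offset by 14 bases and share 286. The stretch of 198 bases upstream of every annotated exon, chr16:92058072-92058269 on the plus strand, reads as follows from 5′ to 3′, with capitals marking the letters GGGCGG (GC box) on either strand.
Slc5a3 and Mrps6 upstream: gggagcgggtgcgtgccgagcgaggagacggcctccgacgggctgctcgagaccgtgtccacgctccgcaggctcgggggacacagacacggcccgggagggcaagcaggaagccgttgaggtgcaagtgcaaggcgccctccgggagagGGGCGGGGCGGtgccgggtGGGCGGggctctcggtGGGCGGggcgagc
The stretch is 75.8% G and C and holds 4 matches to GGGCGG, of which 1 pair overlaps by 1 base.

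Windows were present for 3 of the 5 genes, Slc5a3, Slc38a2 and Nfat5. GGGCGG matched 4 times in the Slc5a3 window, 1 time in the Slc38a2 window and 2 times in the Nfat5 window, and 35.7% of all 32851 windows held it. The other letters searched on both strands were TGGAAA (the core of the element bound by NFAT proteins, Nfat5 included), TATAAA (a core promoter element), TGATGNAA (amino acid response element), TGACGTCA (cAMP response element) and CACGTG (E-box). None of these matched in any of the 3 windows, while 21.4%, 13.6%, 3.97%, 1.79% and 7.15% of all windows held them, in the same order. These matches describe the letters of the windows and say nothing of binding.

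Slc5a3 was the gene of the 5 with the largest fold difference between the group means, while in CPM it was the lowest of the 5. It was counted 296 and 241 times in the untreated libraries, 884 and 801 times in the auxin-treated libraries and 621 and 640 times in the wild-type libraries. All 4 of the auxin-treated and wild-type libraries lay above both untreated libraries, and the 3 groups did not overlap. The mean level ± SD over 2 libraries was 18.6 ± 2.88 CPM for the untreated group, 44.2 ± 0.652 CPM for the wild-type group and 53.6 ± 2.65 CPM for the auxin-treated group. The 2 untreated libraries were further apart than those of the other groups, with a gap of 21.9% of their mean against 6.99% in auxin-treated and 2.09% in wild-type cells. This was not particular to Slc5a3. Over 10969 genes, the chi-square per degree of freedom between replicates, which sets their difference against counting noise, was 7.378 in untreated cells. It was 2.725 in auxin-treated and 3.014 in wild-type cells.

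Between auxin-treated and untreated cells, the Slc5a3 difference that chose the gene was 1.54 on the log2 scale (standard error 0.11), or 2.92-fold. It ranked 6 from the highest among the 10999 genes that averaged 100 counts or more per library and 229 from the highest among all 16128 genes tested. Between wild-type and untreated cells the difference was 1.24 (standard error 0.10), or 2.36-fold, with a rank of 338 from the highest among 10842 genes with that mean count. The low level in the untreated libraries enters both differences, so no p-value is given for either.

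Mrps6, which shares the start of Slc5a3, was counted 259 and 279 times in untreated, 245 and 249 times in auxin-treated and 254 and 233 times in wild-type libraries. Its auxin-treated and wild-type libraries all lay slightly below both untreated libraries when scaled as CPM. The log2 difference of Mrps6 was −0.23 (standard error 0.11) with auxin and −0.13 (standard error 0.11) in wild-type cells, and neither passed the quasi-likelihood test of edgeR after adjustment by Benjamini and Hochberg over all genes (adjusted p = 0.284 and 0.323). The ratio of Slc5a3 to Mrps6 counts was 1.14 and 0.864 in the untreated libraries, 3.61 and 3.22 in the auxin-treated libraries and 2.44 and 2.75 in the wild-type libraries. The counts of Slc5a3 and of the gene around it therefore stood in a different proportion in each group, with no overlap.

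**Figure D2:**
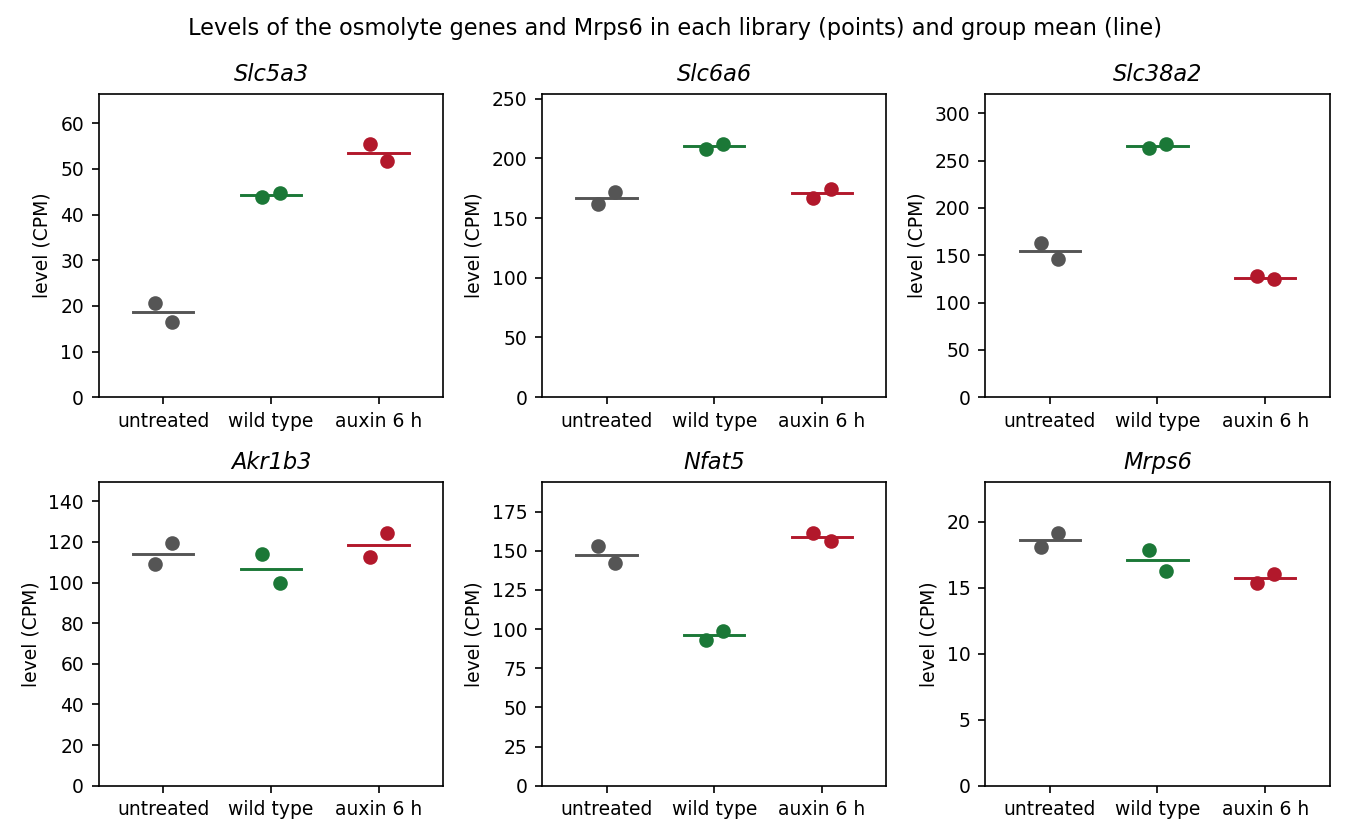
Level in CPM (TMM over 6 libraries) of the 5 genes and of Mrps6, with 1 point per library and a line at the mean of each group of 2. Slc5a3 is lowest in untreated and highest in auxin-treated cells, Slc38a2 is highest and Nfat5 lowest in wild-type cells, and Mrps6 stays between 15.4 and 19.2 CPM.

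Slc6a6, the taurine transporter, is on chromosome 6 from 91684053 to 91759066 on the plus strand and shares 1.38% of its exon bases with Gm44981. It was counted 2324 and 2503 times in untreated, 2664 and 2704 times in auxin-treated and 2949 and 3035 times in wild-type libraries. The mean level (± SD, n = 2) was 167.1 ± 7.07 CPM without auxin and 170.8 ± 5.26 CPM with it, and these groups overlapped. It was 209.9 ± 2.89 CPM (SD, n = 2) in wild-type cells, where both libraries lay above the other 4.

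Slc38a2 is on chromosome 15 from 96687392 to 96699730 on the minus strand, with no exon shared with another gene. It was counted 2342 and 2127 times in untreated, 2041 and 1932 times in auxin-treated and 3736 and 3831 times in wild-type libraries. The level was 154.8 ± 12.1 CPM (SD, n = 2), 126.4 ± 2.34 CPM (SD, n = 2) and 265.4 ± 2.97 CPM (SD, n = 2) in the same order. The 3 groups did not overlap, and the auxin-treated libraries were the lowest and the wild-type libraries the highest.

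Akr1b3, the aldose reductase gene, is on chromosome 6 from 34302434 to 34317478 on the minus strand and overlaps the span of Gm14546 on the other strand. It was counted 1561 and 1736 times in untreated, 1798 and 1931 times in auxin-treated and 1618 and 1429 times in wild-type libraries. The level was 114.1 ± 7.41 CPM (SD, n = 2), 118.7 ± 8.39 CPM (SD, n = 2) and 106.9 ± 10.1 CPM (SD, n = 2) in the same order. Each pair of neighbouring groups overlapped, so no order could be read.

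Nfat5, the transcription factor, is on chromosome 8 from 107293470 to 107379517 on the plus strand, and its coding transcript of 13380 bases carries a 3′ UTR of 8368 bases, close in length to that of Slc5a3. It was counted 2191 and 2065 times in untreated, 2577 and 2420 times in auxin-treated and 1322 and 1419 times in wild-type libraries. The level was 147.4 ± 7.66 CPM (SD, n = 2), 158.9 ± 3.84 CPM (SD, n = 2) and 96.1 ± 4.18 CPM (SD, n = 2) in the same order. The wild-type libraries lay below the other 4, and the auxin-treated libraries lay slightly above both untreated ones.

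With auxin, 1 of the 5 genes was called at an adjusted p of 0.05 in the fit across all genes, Slc5a3, whose call is what chose it, where 4.2% of all 16128 genes tested were called. Slc38a2 was called as well, lower, with all 3 groups in one fit and with the replicate number as a block, so that the number was 1 or 2. Nothing is read from this number. The groups did not overlap for 3 of the 5 genes (Slc5a3, Slc38a2 and Nfat5), against 49.9% of all genes tested. The log2 difference was 0.05 (standard error 0.07) for Slc6a6, −0.27 (standard error 0.07) for Slc38a2, 0.08 (standard error 0.07) for Akr1b3 and 0.13 (standard error 0.07) for Nfat5. The 4 values ranged from −0.27 to 0.13 on the log2 scale, while the median absolute difference of all genes tested was 0.14.

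In wild-type cells, 3 of the 4 genes other than Slc5a3 passed the test, Slc6a6 and Slc38a2 higher and Nfat5 lower, where 60.6% of all 15778 genes tested passed it, 29.9% higher and 30.7% lower. A share of 3 in 4 is close to that background. The groups did not overlap for 4 of the 5 genes, all but Akr1b3, against 81% of all genes tested. The log2 difference from untreated cells was 0.32 for Slc6a6 (standard error 0.06, adjusted p = 0.000794 in edgeR) and 0.77 for Slc38a2 (standard error 0.07, adjusted p = 2.02e-06 in edgeR). Nfat5 was lower, with a log2 difference of −0.62 (standard error 0.07, adjusted p = 1.18e-05 in edgeR). Akr1b3 did not pass, with −0.10 (standard error 0.08, adjusted p = 0.283 in edgeR). Scaling by mitochondrial transcripts moved the median of all genes to −2.10 and turned Slc5a3, Slc6a6 and Slc38a2 to lower. Such a scaling shifts all genes nearly alike, and relative to that median the differences were 1.24 for Slc5a3, 0.33 for Slc6a6, 0.77 for Slc38a2, −0.09 for Akr1b3 and −0.62 for Nfat5.

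**Figure D3:**
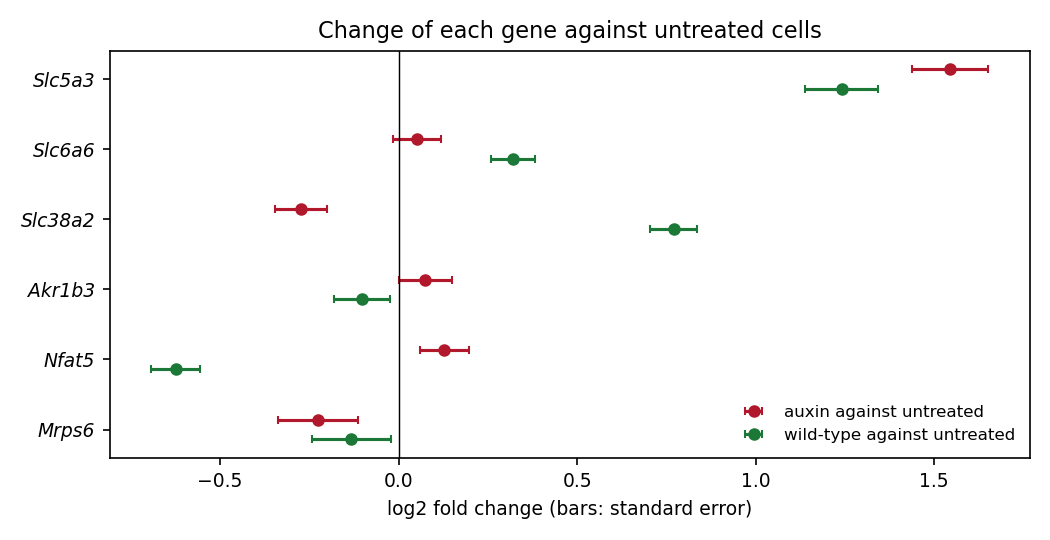
Log2 fold change of the 5 genes and Mrps6 against untreated cells, with auxin (red) and in wild-type cells (green), where bars are the standard errors of the edgeR fit. Slc5a3 is higher in both, at 1.54 and 1.24, while Slc38a2 (−0.27 and 0.77) and Nfat5 (0.13 and −0.62) have opposite signs in the 2 comparisons. Both comparisons use the same untreated libraries, and scaling by mitochondrial transcripts makes Slc5a3, Slc6a6 and Slc38a2 lower in wild-type cells.

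**Figure D4:**
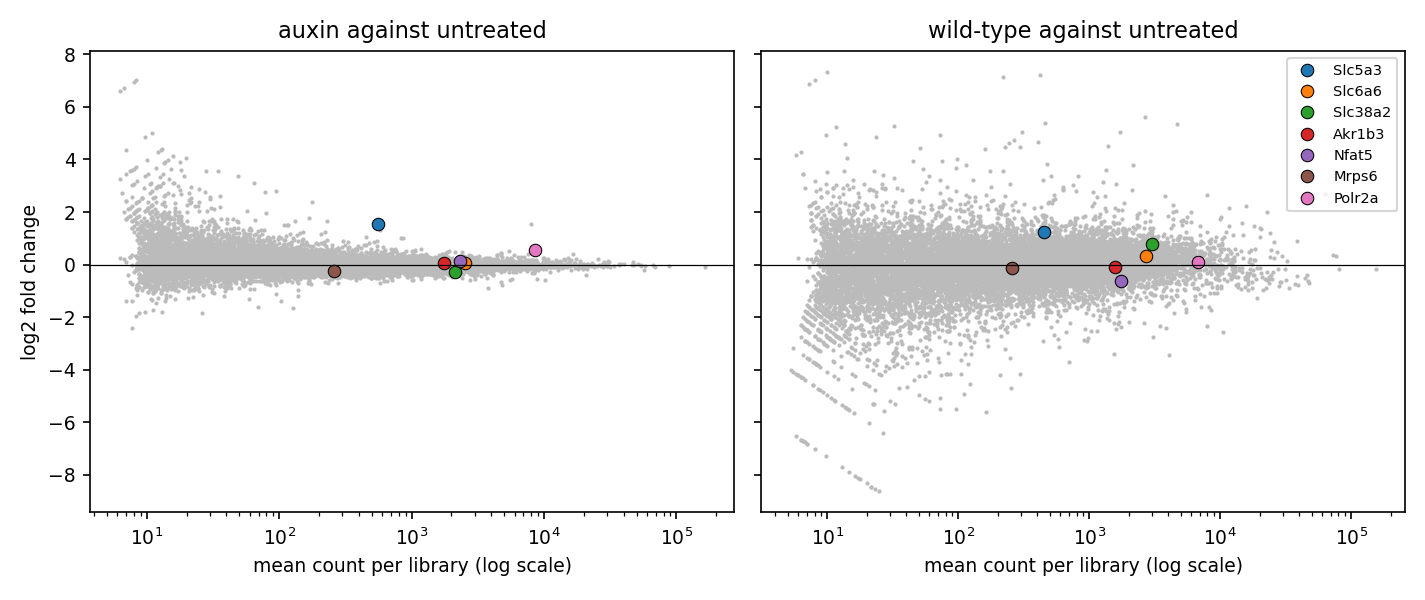
Log2 fold change against the mean count per library (log scale) for every gene tested, with auxin on the left and in wild-type cells on the right. With auxin Slc5a3, which was chosen on this difference, stands above most genes of like count, and the other 4 genes range from −0.27 to 0.13. In wild-type cells the whole cloud is wider, with a median absolute difference of 0.43 against 0.14.

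Per kb of annotated exon, Slc5a3 was the lowest of the 5 genes in every group. It stood at 1.71 ± 0.264 CPM per kb (SD, n = 2) in untreated, 4.91 ± 0.243 in auxin-treated and 4.05 ± 0.0598 in wild-type cells. In untreated cells Nfat5 followed at 8.02 ± 0.417 CPM per kb, then Akr1b3 at 13.6 ± 0.884, Slc38a2 at 17.5 ± 1.37 and Slc6a6 at 19.8 ± 0.836 (SD, n = 2 each). Slc38a2 and Slc6a6 differed there by little more than their spread, and their order turned in wild-type cells, with 30.0 ± 0.336 CPM per kb for Slc38a2 and 24.8 ± 0.341 for Slc6a6. In wild-type cells Slc5a3 and Nfat5 were closest, with Nfat5 at 5.23 ± 0.227 CPM per kb. The order of the 3 highest genes depends on the length used, since the coding transcript of Akr1b3 has 1387 bases while all its annotated exons together have 8384.

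The 5 genes whose pattern over the 6 libraries was most like that of Slc5a3 were Nrarp, Fos, Star, Gm26917 and Tob1, by the Euclidean distance between log2 levels centred on the untreated mean, among 10969 genes averaging 100 counts or more. Nrarp, a feedback inhibitor of Notch signalling, was closest at a distance of 0.42, with 118 and 93 counts in untreated, 377 and 338 in auxin-treated and 203 and 207 in wild-type libraries. Fos, a subunit of the AP-1 transcription factor, was next at 0.738, with 60 and 60, 191 and 213, and 218 and 175 counts. Star, which brings cholesterol into mitochondria for steroid synthesis, was at 1.02, as was the lincRNA Gm26917, and Tob1, an antiproliferative protein that binds mRNA deadenylases, was at 1.10. The likeness is a description over 6 libraries that share 2 reference libraries. The other 4 osmolyte genes stood at ranks 1983 (Slc6a6), 3385 (Slc38a2), 5368 (Akr1b3) and 8873 (Nfat5) of 10968. The distance includes the auxin difference on which Slc5a3 was chosen. Any gene with an ordinary auxin difference is therefore far from it, and nothing further is read from these ranks.

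Other genes of the pathway were taken from 8 lists with 109 genes, none of them one of the 5. They cover further osmolyte transporters, osmolyte enzymes, ion transport in cell volume control, the hypertonicity response, the NFAT family and the Slc5a, Slc6a and Slc38a families. With auxin, 4 of the 83 tested passed the edgeR test (4.82%, against 4.2% of all genes), all 4 higher (against 2.56% of all genes called higher). An unadjusted p under 0.05 in edgeR was reached by 25 of the 83, a larger share than the 20.1% of all genes tested. The median log2 difference of the 83 was 0.02, against 0.00 for all genes tested. DESeq2 called 1 of these genes, Zfp36l1, and leaving out a library moved the number from 1 (either auxin-treated library) to 9 (untreated replicate 2) and 20 (untreated replicate 1).

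Among 16 osmolyte enzymes, Miox and Cdo1 rose with auxin and 14 did not pass, with a median log2 difference of 0.09. An unadjusted p under 0.05 in edgeR was reached by 7 of the 16, against 20.1% of all genes tested. Miox, the oxygenase that begins the breakdown of myo-inositol, was counted 26 and 24 times in untreated and 67 and 63 times in auxin-treated libraries (log2 difference 1.27, standard error 0.25, adjusted p = 0.0149 in edgeR). Cdo1, the cysteine dioxygenase on the route to taurine, was counted 107 and 126 times and then 210 and 207 times (0.74, standard error 0.15, adjusted p = 0.0148 in edgeR). The groups of either gene did not overlap. Neither call held with DESeq2 (adjusted p = 0.151 and 0.0965) or without either auxin-treated library.

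Among 17 genes of the hypertonicity response, Hspa1b and Zfp36l1 rose and 15 did not pass, with a median of 0.05. An unadjusted p under 0.05 in edgeR was reached by 8 of the 17, against 20.1% of all genes tested. Hspa1b, an inducible Hsp70 chaperone, was counted 112 and 100 times in untreated and 196 and 186 times in auxin-treated libraries (0.74, standard error 0.15, adjusted p = 0.0162 in edgeR). Its reads are hard to separate from those of its near-identical neighbour Hspa1a, which was counted 105 and 64 and then 182 and 138 times (0.81, standard error 0.22, adjusted p = 0.0578 in edgeR), and the Hspa1b call did not hold with DESeq2 (adjusted p = 0.114) or without either auxin-treated library. Zfp36l1, which promotes the decay of mRNAs with AU-rich elements, was counted 582 and 547 and then 878 and 975 times (0.61, standard error 0.09, adjusted p = 0.00282 in edgeR). Ranbp3l, a gene of the same list named here after its values were seen, had too few counts for a test, with 0 and 0 in untreated, 6 and 14 in auxin-treated and 0 and 0 in wild-type libraries.

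In the other lists no gene passed edgeR's test with auxin, and the numbers at an unadjusted p under 0.05 stand against the same 20.1% of all genes. The count was 0 of 6 osmolyte transporters (0 at an unadjusted p under 0.05), 0 of 24 volume control genes (8 unadjusted), 0 of 4 NFAT genes (0 unadjusted), and 0 of 4 Slc5a genes (2 unadjusted), 0 of 7 Slc6a genes (0 unadjusted) and 0 of 5 Slc38a genes (0 unadjusted). DESeq2 also called 0 genes in each of these lists.

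**Figure D5:**
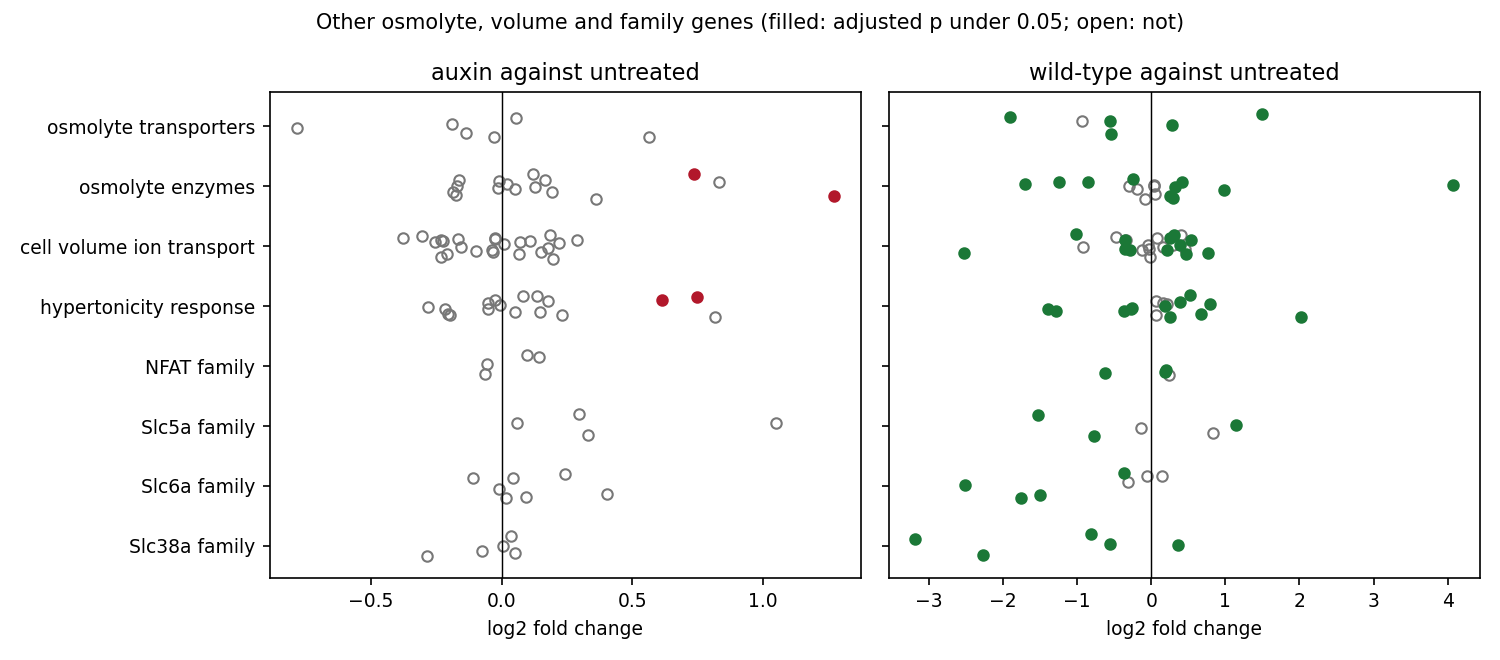
Log2 fold change of each listed gene that was tested, by list, with auxin on the left (4 of 83 filled) and in wild-type cells on the right (54 of 83 filled), where filled points had an adjusted p under 0.05 and open points did not. The 4 filled points on the left all lie above 0, while those on the right lie on both sides (26 higher and 28 lower). Scaling by mitochondrial transcripts, which lowers the median of all genes to −2.10 in wild-type cells, is not shown.

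In wild-type cells, 54 of the 83 listed genes tested passed (65.1%, against 60.6% of all genes). Of these, 26 were higher and 28 lower, where 29.9% of all genes were higher and 30.7% lower. Some of them reached the minimum of 10 counts in both libraries of their higher group only. These were Bhmt through the wild-type libraries, and Miox, Slc6a12, Slc6a13, Slc6a17 and Slc38a8 through the untreated libraries. The filter thus favoured their calls, which are counted here and in the lists below, and nothing is read from them. The median log2 difference of the 83 was −0.01, against −0.01 for all genes tested. Mitochondrial scaling turned every gene named below as higher, except Bhmt, to lower.

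The genes that handle myo-inositol were picked out after their values were seen. Slc5a11, the second sodium-coupled myo-inositol transporter, was counted 39 and 52 times in untreated, 43 and 46 times in auxin-treated and 132 and 122 times in wild-type libraries. It rose by 1.49 on the log2 scale in wild-type cells (standard error 0.21, adjusted p = 8.3e-05 in edgeR), while the auxin-treated and untreated libraries overlapped. The proton-coupled myo-inositol transporter Slc2a13 was too low for a test, with 2 and 4, 10 and 9, and 3 and 5 counts in the same order.

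Of the osmolyte enzymes, 6 of 16 were higher and 4 lower in wild-type cells, against 29.9% and 30.7% of all genes, and 3 that were higher act in myo-inositol synthesis. Isyna1, the synthase that makes inositol phosphate from glucose 6-phosphate, differed by 0.30 (standard error 0.07, adjusted p = 0.00216 in edgeR, lost without wild-type replicate 1 with an adjusted p of 0.0706). The phosphatases Impa1 and Impa2, which release free myo-inositol, differed by 0.41 (standard error 0.07) and 0.98 (standard error 0.13). With auxin the same enzymes stood at 0.13, −0.17 and −0.16 and did not pass.

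Miox, which rose with auxin, was lower in wild-type cells at 9 and 6 counts (−1.71, standard error 0.40, adjusted p = 0.00308 in edgeR, and 0.0518 with DESeq2). Cdipt, which joins myo-inositol to a lipid to form phosphatidylinositol, was counted 1277 and 1156 times in untreated and 670 and 665 times in wild-type libraries, a log2 difference of −0.86 (standard error 0.08).

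Of the sorbitol pathway, Sord, which turns sorbitol into fructose, was counted 1346 and 1568 times in untreated and 623 and 600 times in wild-type libraries (−1.24, standard error 0.08, adjusted p = 2.62e-07 in edgeR), whereas Akr1b3, the first step, did not pass. Bhmt, which uses betaine, was at 2 and 1 counts in untreated and 23 and 31 counts in wild-type libraries.

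Of the 6 further osmolyte transporters tested, 2 were higher and 3 lower in wild-type cells, against 29.9% and 30.7% of all genes, with a median of −0.55. The system A amino acid transporters moved apart. Slc38a2 was higher, Slc38a1 was lower (3024 and 2771 against 1937 and 1968 counts, −0.56, standard error 0.07), and Slc38a4 was higher by 0.28 (standard error 0.06). Slc38a3, of system N, was lower, at −0.55 (standard error 0.16), a call that DESeq2 did not make. Slc6a12, the betaine and GABA transporter, was also lower but rested on 15 and 12 against 1 and 6 counts, and DESeq2 did not call it (adjusted p = 0.149). Its call was also lost without untreated replicate 1 and without wild-type replicate 1 (adjusted p = 0.0921 and 0.207 in edgeR). Slc38a5 did not pass, at 14 and 15 against 5 and 10 counts.

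Of the 5 paralogs in the Slc38a family list tested, 4 were lower and 1 higher in wild-type cells, against 30.7% of all genes lower and 29.9% higher. Slc38a7, a lysosomal glutamine exporter, fell from 2764 and 2767 to 554 and 581 counts (−2.27, standard error 0.07, adjusted p = 7e-10 in edgeR), Slc38a8 from 74 and 102 to 7 and 12 counts, and Slc38a9, a lysosomal arginine sensor, from 382 and 385 to 207 and 228 counts. Slc38a6 was lower, at −0.56 (standard error 0.15) and Slc38a10 higher by 0.37 (standard error 0.07).

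In the Slc6a family, 4 of 7 were lower and 0 higher in edgeR, against 30.7% and 29.9% of all genes. The glycine transporter Slc6a9 was at −1.50 (standard error 0.11) and the creatine transporter Slc6a8 at −0.36 (standard error 0.08). Slc6a13 was lower on 15 and 15 against 1 and 4 counts, and Slc6a17 on 22 and 23 against 5 and 8 counts. Slc6a7 and Slc6a15 did not pass. In the Slc5a family, the iodide transporter Slc5a5 (−1.53, standard error 0.15) and the vitamin transporter Slc5a6 (−0.78, standard error 0.12) were lower. Slc5a4b was higher on 12 and 28 against 52 and 36 counts, and Slc5a1 and Slc5a10 did not pass.

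Of 24 volume control genes, 7 were higher and 5 lower in wild-type cells, against 29.9% and 30.7% of all genes, with a median of 0.03. Aqp3, a channel for water and glycerol, fell from 1812 and 2068 to 346 and 322 counts (−2.53, standard error 0.09, adjusted p = 1.61e-09 in edgeR). Lrrc8d, a subunit of the volume-regulated anion channel that passes organic osmolytes, fell from 2026 and 2038 to 985 and 1002 counts (−1.02, standard error 0.06). The chloride transporter Clcn3 was lower, at −0.35 (standard error 0.07), and Atp1b1, the sodium pump's beta subunit, was higher by 0.77 (standard error 0.06).

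Of 16 genes of the hypertonicity response, 7 were higher and 5 lower in wild-type cells, against 29.9% and 30.7% of all genes, with a median of 0.17. Sgk1, a kinase induced by cell shrinkage and by glucocorticoids, rose from 1116 and 1015 to 4332 and 4265 counts (2.02, standard error 0.07, adjusted p = 1.73e-09 in edgeR), while Tsc22d3, another glucocorticoid target, fell from 279 and 268 to 108 and 99 counts (−1.39, standard error 0.14). The chaperone Hsph1 was higher by 0.80 (standard error 0.08) and the RNA helicase Dhx9 by 0.67 (standard error 0.06). Hspa4l, Hspa1b, Tsc22d4 and Ddit4 did not pass. With auxin, Sgk1 had been at 903 and 980 counts, below both untreated libraries (−0.28, standard error 0.08, adjusted p = 0.0732 in edgeR).

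Of the 4 relatives of Nfat5, Nfatc3 and Nfatc4 were higher by 0.19 and 0.20 (standard error 0.07 each), Nfatc1 was lower, at −0.63 (standard error 0.23) and Nfatc2 did not pass. DESeq2 made none of these 3 calls, whereas the lower Nfat5 level in wild-type cells was called by both tools.

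Some calls among the listed genes in wild-type cells rested on 1 library. Without wild-type replicate 1, Slc38a3, Slc38a4, Slc5a4b, Slc6a13 and Nfatc1 no longer passed (adjusted p = 0.0872, 0.05, 0.129, 0.0533 and 0.218 in edgeR, in that order), and without wild-type replicate 2 the same held for Slc38a6, Nfatc3 and Nfatc4 (adjusted p = 0.0651, 0.348 and 0.309 in edgeR). Without untreated replicate 1, Slc5a4b and Nfatc1 were lost (adjusted p = 0.133 and 0.132 in edgeR). DESeq2 also did not call Slc5a4b and Slc6a17, with adjusted p-values of 0.0839 and 0.0599.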

How the data were processed

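The authors aligned paired poly(A) RNA-Seq reads to mm10 with HISAT2 (version 2.1.0) and counted them per GENCODE gene with Salmon and htseq-count; strand setting and release are not given in the sources used here. They deposited whole-number counts, not normalized, with degron and wild-type libraries in separate tables that were joined by gene ID. Columns of the authors' own comparison (fold changes, p-values) and 2 columns matching no sample were not used. Locations came from GENCODE vM21, which held 96.6% of the IDs.

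Counts were tested with edgeR (version 4.0.16; quasi-likelihood, TMM, filterByExpr with a minimum count of 10, Benjamini-Hochberg over all genes tested at 0.05), after a check on simulated counts. Of the other genes, those called were named, up to 4 with the smallest p per list and comparison, with those not called where 5 or fewer, Polr2a, genes overlapping Slc5a3, and the 5 most like it. Genes and lists were chosen with earlier results of these data known. DESeq2 (version 1.42.0), other scalings, filters and left-out libraries were tried. The values of 1 listed gene are not reported here.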

Additional observations from a re-analysis of the deposited data

How the results depend on the processing

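In wild-type cells Slc6a6, Slc38a2 and Nfat5 passed the test in every alternative. Scaling by mitochondrial transcripts gave log2 differences there of −0.86 for Slc5a3, −1.77 for Slc6a6, −1.33 for Slc38a2 and −2.003 for Polr2a, and passed Akr1b3 at −2.19, with 73 genes higher, 15235 lower and 82 listed genes called. It turned the listed genes Atp1b1 to −1.33, Dhx9 to −1.42, Hsph1 to −1.31, Impa1 to −1.68, Impa2 to −1.09, Isyna1 to −1.80, Nfatc3 to −1.91, Nfatc4 to −1.89, Sgk1 to −0.081, Slc38a10 to −1.73, Slc38a4 to −1.81, Slc5a11 to −0.59 and Slc5a4b to −0.92. With auxin it moved the median of all genes to −0.17 and gave 1.37 for Slc5a3, −0.12 for Slc6a6, −0.45 for Slc38a2, −0.091 for Akr1b3 and −0.045 for Nfat5. Leaving out a library gave 1.39 to 1.71 for Slc5a3 with auxin and 1.09 to 1.41 in wild-type cells, and −0.36 to −0.20 for Slc38a2 with auxin. Of the 5 genes, 1 was called with auxin, and Slc38a2 made it 2 without either untreated library, with all 3 groups in one fit and with the replicate block.

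The counts of genes called with auxin, 413 higher and 264 lower, were less stable. They became 130 and 111 with DESeq2, 167 and 52 with mitochondrial scaling (76.3% higher against 61.0%), 43 and 12 without a filter, 246 and 186 with 10 counts in every library, and 567 and 668 with all 3 groups in one fit. Leaving out a library gave 142 to 1394 higher and 35 to 1330 lower, the highest without untreated replicate 1 and the lowest without an auxin-treated library. The 4 listed genes called became 1 with DESeq2, 0 with mitochondrial scaling, 0 without a filter, 8 with all 3 groups, and 1 to 20 without a library. With the replicate number as a block the counts were 1081, 849 and 13. Across genes, same-numbered deviations correlated at 0.11 between untreated and auxin-treated and −0.06 between untreated and wild-type libraries. With groups of 2 libraries these correlations cannot show whether same-numbered libraries were paired, and the labels state no pairing. The causes were not tested.

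In CPM per kb of the longest transcript, untreated levels were 27.0 for Slc6a6, 25.3 for Slc38a2, 22.7 for Akr1b3 and 10.97 for Nfat5; with the coding transcript, an alternative chosen after seeing the data, they were 27.0, 33.2, 82.3 and 11.02. Groups of 2 libraries limit every comparison, and no spike-in ties these shares to amounts per cell.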
